A study of Mus musculus and synthetic RNA with 74 samples.

Results

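Short introns, here introns under 150 nt with a mean normalised read count of at least 10, were described in single mouse embryos at embryonic day 2.5 (E2.5, morula) and E3.5 (blastocyst). The members were the distinct intron rows of the deposited exon and intron tables, 1 per chromosome, start, end and strand, that met both limits at a stage. Of 199024 distinct introns, 19470 were under 150 nt, and 731 of these reached the minimum at E2.5 and 680 at E3.5. Both stages shared 419, and 992 short introns were members at either stage. They lay in 508 genes at E2.5 and in 493 genes at E3.5.

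The embryos came from superovulated Mettl16+/- females mated with Mettl16+/- males, of line 2112, which began with injected B6D2F1/J zygotes, carries a cassette of stop codons in exon 3 of Mettl16, and was bred to C57BL/6JRj mice. Each embryo was assigned its genotype from Mettl16 reads of its own library. At E2.5 there were 5 wild-type (WT, Mettl16+/+), 14 heterozygous (HET, Mettl16+/-) and 12 knockout (KO, Mettl16-/-) embryos. At E3.5 there were 18 WT, 9 HET and 12 KO embryos. The allele is constitutive, so every cell of a KO embryo carries it, and all embryos shared a heterozygous mother and, with her, the maternal RNA of the egg. The level used for each intron and exon was the authors' mean over all embryos of a stage, WT, HET and KO together. WT embryos were 5 of 31 in this mean at E2.5 and 18 of 39 at E3.5. Stage and genotype mix therefore cannot be told apart in any difference between stages. The mean gives no spread over embryos, and a difference between genotypes is not analysed here. For this reason the sections that follow contain no test.

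METTL16 is an RNA methyltransferase that places N6-methyladenosine (m6A) on U6 small nuclear RNA, in the ACAGA box that pairs with the 5′ splice site of an intron, and on Mat2a mRNA, which encodes the synthetase of the methyl donor S-adenosylmethionine. Splicing removes an intron after the 5′ splice site, the branch point and the 3′ splice site have been recognised. In short introns these sites are thought to be recognised as a pair across the intron, and in genes with long introns across the exon. Intron reads in polyadenylated RNA can come from introns left in a finished transcript (intron retention), from unfinished splicing, from another transcript in which the same bases are exon, or from a gene on the other strand.

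The introns that carry the results below are printed from the GRCm38 reference, with the first 6 and the last 2 bases of the intron in capitals. The first 6 bases hold the intron's part of the 5′ splice site. Isyna1, Hspa8, Rpl10, Nop56 and the first introns of Mrps24 are shown for their high level, Psmb10, Tead1 and Doc2a for their high level relative to the exons, and Luc7l3 for its difference between stages. UTR introns are not printed.
Hspa8 intron 7, chr9:40804364-40804462, + strand: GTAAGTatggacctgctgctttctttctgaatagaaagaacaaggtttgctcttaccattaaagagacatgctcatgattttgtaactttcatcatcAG
Isyna1 intron 4, chr8:70595272-70595360, + strand: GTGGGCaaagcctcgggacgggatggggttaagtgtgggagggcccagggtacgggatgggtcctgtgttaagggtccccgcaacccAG
Rpl10 intron 3, chrX:74271719-74271799, + strand: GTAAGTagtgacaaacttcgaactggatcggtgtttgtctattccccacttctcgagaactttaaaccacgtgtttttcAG
Nop56 intron 6, chr2:130276624-130276706, + strand: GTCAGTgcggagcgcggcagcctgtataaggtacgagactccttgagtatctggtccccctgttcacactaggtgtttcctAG
Mrps24 intron 1, chr11:5707556-5707623, - strand: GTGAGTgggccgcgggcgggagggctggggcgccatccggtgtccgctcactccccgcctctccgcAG
Mrps24 intron 2, chr11:5707410-5707486, - strand: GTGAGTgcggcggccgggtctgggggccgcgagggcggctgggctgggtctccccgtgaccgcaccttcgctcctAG
Psmb10 intron 5, chr8:105936755-105936865, - strand: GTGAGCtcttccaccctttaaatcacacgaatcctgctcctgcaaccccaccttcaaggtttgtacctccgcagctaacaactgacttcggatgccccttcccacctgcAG
Luc7l3 intron 10, chr11:94293033-94293137, - strand: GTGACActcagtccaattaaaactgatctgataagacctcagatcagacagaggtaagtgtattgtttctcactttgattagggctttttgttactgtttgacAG
Tead1 intron 4, chr7:112841951-112842039, + strand: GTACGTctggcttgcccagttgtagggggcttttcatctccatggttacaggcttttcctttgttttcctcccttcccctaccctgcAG
Doc2a intron 10, chr7:126851806-126851890, + strand: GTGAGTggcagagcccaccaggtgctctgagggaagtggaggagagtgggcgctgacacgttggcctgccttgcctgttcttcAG

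Of the marker genes checked, all 6 of the oocyte had a lower gene-level mean at E3.5, among them Zp3 with 1587 at E2.5 and 104 at E3.5. Of 8 morula and trophectoderm genes 6 were higher at E3.5, such as Krt8 (651 and 30838) and Cdx2 (171 and 1940), and Tfap2c (5278 and 1849) and Tead4 (5893 and 2325) were lower. Of 6 genes of the inner cell mass 3 were higher, and of 4 of the primitive endoderm 3 were, with Gata4 lower (1268 and 253). Outside the embryo's cell types, Hbb-bs and Ptprc of blood stayed under 2 and Cd68 had 80.0 and 118. The gene-level tables of the stages were also normalised apart. In whole embryos, fewer cells of a type and less RNA per cell cannot be told apart, which touches every stage difference of a level.

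Few short introns reached the minimum, and most of those that did were not far above it. At E2.5 3.75% of the introns under 150 nt were members and at E3.5 3.49%, against 13.4% and 20.4% of the longer introns. A fixed minimum asks more of a short intron per base, so these shares are not a comparison of splicing. The median member had a mean of 23.4 at E2.5 and 19.0 at E3.5, and the mean was under 20 for 42.8% and 52.7% of members. Summed over the 31 and 39 embryos, the minimum of 10 stands for about 310 and 390 normalised reads, which could be spread evenly or come from few embryos. Only 8 members at E2.5 and 6 at E3.5 had a mean of at least 1000. The 10 highest members held 37.2% of the members' summed mean at E2.5 and 33.7% at E3.5, and all members together held 2.16% and 1.17% of the summed mean of all introns. The median length of members was 94 nt at both stages, and the shortest intron of any level in the tables had 33 nt.

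Membership went with the expression of the host gene. Exon level was taken as the summed mean of the exons of the same transcript per 1000 nt, and short introns that overlapped no exon row were sorted by it into 10 classes of like size. At E3.5, 359 of 1851 short introns (19.4%) in the highest class were members, against 112 of 1853 (6.04%) in the next class and 1 of 1852 in the fifth. At E2.5 the highest class held 21.4% members. Members had a median exon level of 4428 per 1000 nt at E2.5 and 2619 at E3.5, against 54.4 and 58.9 for short introns under the minimum. The minimum is set on a mean that also depends on host expression, so this order is in part fixed by the rule. Most short introns of the highest class were not members, and some members had a low exon level, such as Map7d1 with 37.9 at E2.5.

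Members overlapped annotated exons in a larger share than short introns under the minimum did. At E2.5, 131 members (17.9%) overlapped an exon row of another RefSeq transcript, and at E3.5 119 members (17.5%) did, against 2.47% and 2.53% of short introns under the minimum. Of those members, 68 and 67 lay wholly inside 1 exon. Of the members that overlapped no RefSeq exon, 57.0% at E2.5 and 57.6% at E3.5 lay wholly inside an exon of the broader GENCODE annotation, against 15.2% and 15.3% of the short introns under the minimum. For 43.7% and 43.1% that exon belonged to a transcript that GENCODE labels as retaining an intron. Only 3.67% and 3.03% lay inside a GENCODE exon of the other strand, where the reads of the 2 strands cannot be told apart because the libraries were not strand-specific.

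A pair of introns in each of Cnbp and Eif4a1 shared 1 splice site and differed only in a few bases of exon. These pairs were chosen after their values were seen. Eif4a1, a helicase of translation initiation, has 2 deposited forms of intron 10 with the same 5′ splice site, of 77 and 88 nt, whose 3′ ends are 11 nt apart. The 88-nt form, which holds 11 nt of exon of the other form, had a mean of 2918 at E2.5 and 3198 at E3.5. The 77-nt form had 19.7 and 58.2. In Cnbp, which encodes a zinc-finger nucleic acid-binding protein, the 119-nt form of intron 2 holds 21 nt of exon and had a mean of 5736 at E2.5 and 1066 at E3.5, the highest of all members at E2.5. Without those 21 nt the 98-nt form had 14.4 and 3.21. In both pairs the form with exon bases stood far above the form without them. The remaining introns among the 5 with the highest mean and exon overlap at each stage lay wholly inside an exon of another transcript. They were Rps27a (2410 at E2.5 and 1182 at E3.5), a fusion of ubiquitin and a ribosomal protein, Mtf2 (2052 and 2524), an accessory subunit of Polycomb repressive complex, Tardbp at E2.5 (1643), which encodes the RNA-binding protein TDP-43, and Uqcrq at E3.5 (1037), a subunit of respiratory complex III.

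To compare an intron with its own transcript, its mean per length was divided by that of the exons of the same transcript in the same table. This intron to exon ratio, given in percent, does not depend on the scaling of a table, which matters because the stages were normalised apart. The median ratio of members was 7.04% (95% interval 5.83 to 8.29) at E2.5 and 10.4% (8.47 to 12.0) at E3.5. These intervals are exact binomial intervals of the median over introns and carry nothing on the spread between embryos. Members with RefSeq exon overlap had a median ratio of 67.7% and 64.0%, and members without it 4.52% and 7.36%. Those that overlapped a GENCODE exon only had 6.14% (n = 408) and 7.82% (n = 372), and those that overlapped no annotated exon had 2.04% (n = 192) and 6.15% (n = 189). The order of the 3 classes was the same at both stages, with wide overlap of single introns. Among members without RefSeq overlap, 20.8% at E2.5 and 24.96% at E3.5 had a ratio of at least 20%, and 4.50% and 3.57% stood at or above the level of their exons.

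**Figure D1:**
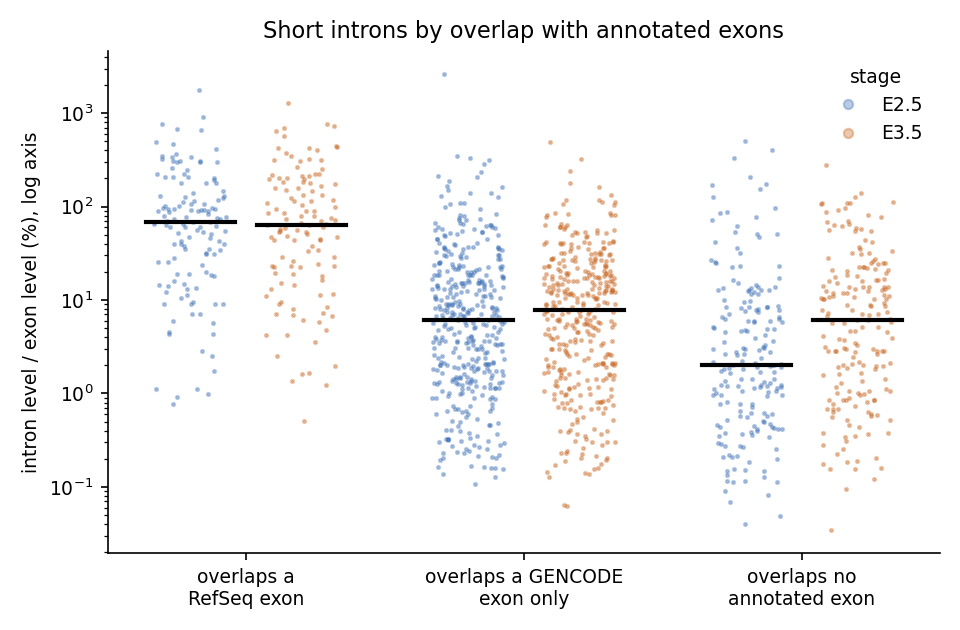
Intron level as a percentage of the exon level of the same transcript (log axis) for every member at E2.5 (blue) and E3.5 (orange), by overlap with annotated exons; each point is 1 intron from the mean over all embryos of the stage and the black bar is the median. Medians were 67.7% and 64.0% with a RefSeq exon, 6.14% and 7.82% with a GENCODE exon only, and 2.04% and 6.15% with neither.

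The ratio was highest in the shortest introns, and the classes from 80 to under 200 nt had overlapping intervals among introns with the minimum mean. Among introns that reached the minimum and overlapped no exon row, the median at E3.5 was 12.2% under 80 nt, 6.99% from 80 to under 100 nt, 6.11% from 100 to under 120 nt and 4.84% from 120 to under 150 nt, then 4.66% from 150 to under 200 nt and 2.79% from 300 to under 1000 nt. At E2.5 the same classes had 8.42%, 3.5%, 3.51%, 2.71%, 3.91% and 1.49%. The fixed minimum alone raises this ratio in short introns, so the same introns were also taken without it, in transcripts with an exon level of at least 1000 per 1000 nt. The median ratio was then 0.501% (0.465 to 0.543, n = 3213) for introns under 150 nt and 0.157% (0.153 to 0.161, n = 19244) for longer ones at E2.5. At E3.5 it was 0.673% (0.630 to 0.712, n = 2504) and 0.232% (0.225 to 0.239, n = 16042). Introns under 80 nt stood apart with 1.84% and 1.90%, while those from 80 to under 100 nt had 0.521% and 0.733%. Reads of up to 80 nt that cross the exon border weigh more in a short intron, and their part in this order was not tested.

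**Figure D2:**
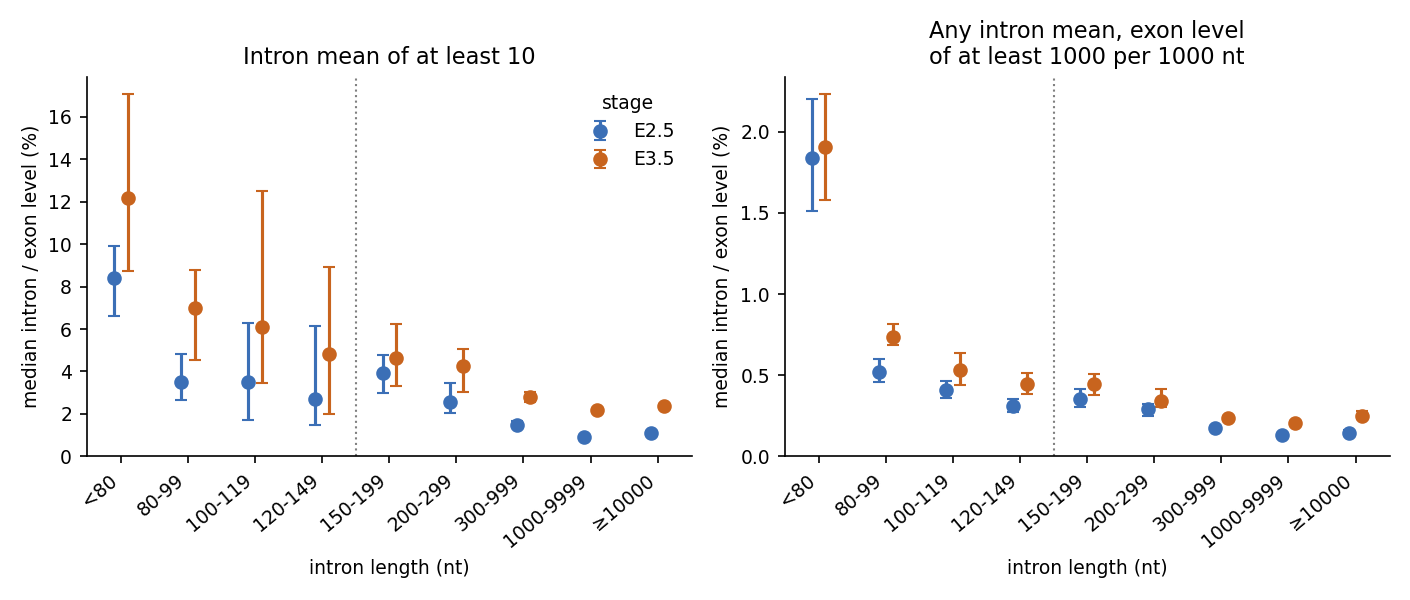
Median intron level as a percentage of exon level by intron length (nt), for introns without RefSeq exon overlap, at E2.5 (blue) and E3.5 (orange), with exact 95% binomial intervals of the median over introns; the dotted line marks 150 nt. The left panel holds introns with a mean of at least 10, the right panel introns of any mean in transcripts with an exon level of at least 1000 per 1000 nt, where those under 80 nt had 1.84% and 1.90%.

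Most members compared here were the highest intron of their transcript, but a gene could hold several members. At E2.5, 144 of the 508 genes with a member had at least 2. Among members without exon overlap whose transcript had at least 3 other such introns, the other introns, summed and divided by their summed length, had a median ratio of 0.497% at E2.5 (n = 510) and 0.755% at E3.5 (n = 489), against 5.00% and 8.08% for the members. The member was the highest intron of the transcript for 61.4% and 63.0%, and at least 10 times the others for 44.1% and 41.3%. For 10.8% and 4.91% it was below the others. The members were chosen for their level, so these shares describe the members and are no evidence about short introns at large.

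Hspa8, the constitutive cytosolic HSP70 chaperone, gave the highest level per length of any coding intron without exon overlap at E3.5. Its intron 7, of 99 nt, had a mean of 426 at E2.5 and 577 at E3.5, and a ratio of 1.44% and 3.40%. The other introns of Hspa8 free of exon rows had 0.0838% and 0.0828% together. Introns 3 and 4 were members too, of which intron 4, of 82 nt, had a mean of 79.2 and 96.5 and a ratio of 0.32% and 0.69%.

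Isyna1, which makes inositol phosphate for myo-inositol synthesis, had 8 short introns at E2.5 and all of them were members. Intron 4, of 89 nt, had a mean of 1887 at E2.5 and 32.5 at E3.5, with a ratio of 13.9% and 1.61%. Intron 9, of 84 nt, had 397 and 39.3, with 3.10% and 2.06%. The remaining short introns of the gene had at E2.5 a ratio down to 0.370%, so neighbours of like length in 1 transcript differed widely. Intron 4 interrupts the reading frame and contains an in-frame stop codon.

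Psmd11, a lid subunit of the 26S proteasome, carried a 115-nt intron in its 3′ UTR, the last of 13. It had a mean of 736 at E2.5 and 627 at E3.5 and a ratio of 22.5% and 26.5%. The other 12 introns of the transcript had 0.0237% and 0.0490% together. GENCODE holds a protein-coding Psmd11 transcript in which these bases are exon. As in Psmd11, a high last intron among low ones was also seen in Luc7l3, which encodes a U1-associated splicing factor, with a mean of 58.9 at E2.5 and 159 at E3.5 for intron 10 and a ratio of 50.6% and 112%, while its other 9 introns had 0.314% and 0.742%. Per 1000 nt, Luc7l3 intron 10 had 561 and 1516, between the exon before it (963 and 2548) and the exon after it (53.4 and 183). Intron 10 too lies wholly inside an exon of a protein-coding GENCODE transcript of its gene.

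Psmb10, an immunoproteasome subunit, had 1 intron above the exon level of its whole transcript at both stages. The mean of intron 5, of 111 nt, was 169 at E2.5 and 22.5 at E3.5, and its ratio 151% and 132%. Introns 1, 2, 3, 6 and 7 of the transcript stayed under 2% at both stages, and intron 4, of 259 nt, had 18.03% and 19.7%. The exon level of Psmb10 was 1009 and 154 per 1000 nt, on the separate scale of each stage. Intron 5 lay under both neighbouring exons, with 1527 and 203 per 1000 nt. The exon before it had 2207 and 284, and the exon after it 4464 and 698. GENCODE holds a Psmb10 transcript that retains intron 5.

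**Figure D3:**
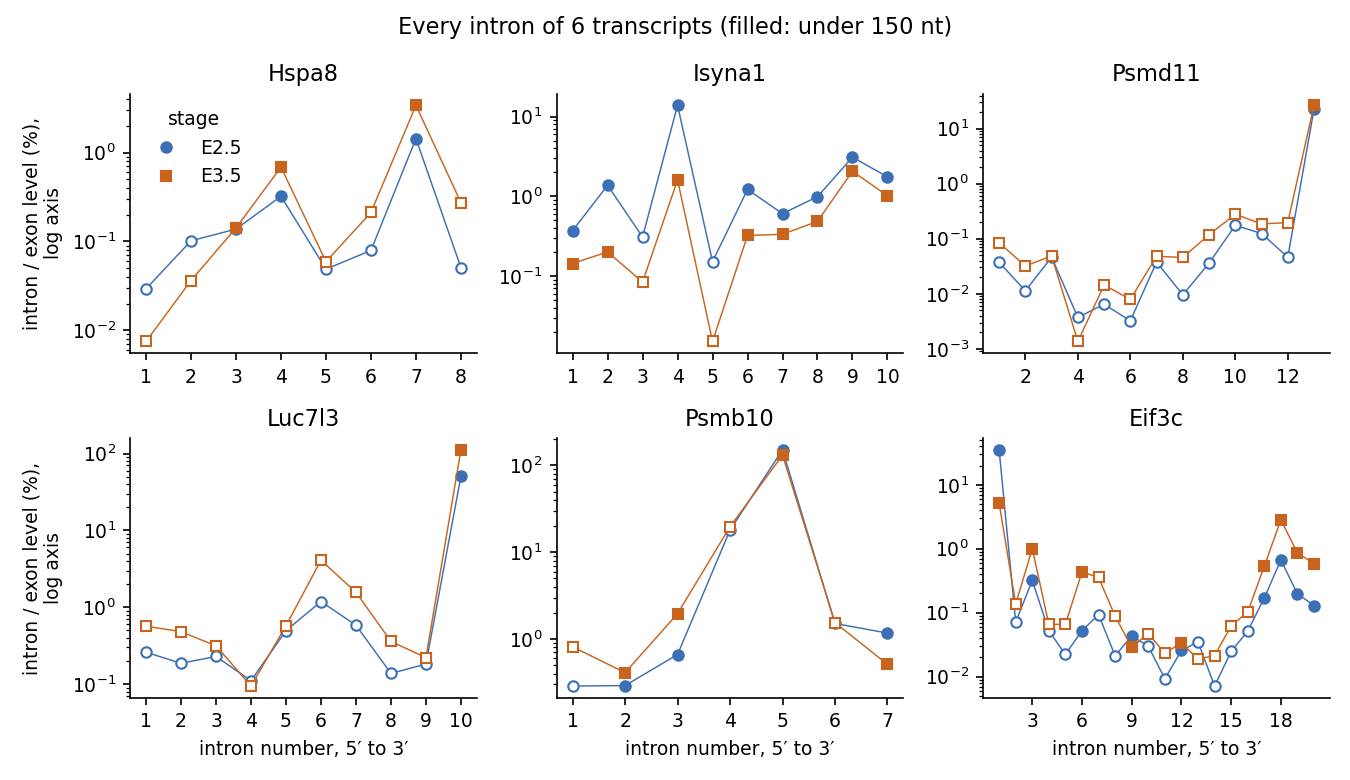
Intron level as a percentage of exon level (log axis) for every intron of the Hspa8, Isyna1, Psmd11, Luc7l3, Psmb10 and Eif3c transcripts in order from 5′ to 3′, at E2.5 (blue circles) and E3.5 (orange squares); filled symbols are introns under 150 nt. Single short introns stand above the rest, such as intron 13 of Psmd11 with 22.5% and 26.5% and intron 10 of Luc7l3 with 50.6% and 112%.

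Introns of the 5′ UTR held several of the highest levels. Ubxn1, whose protein is a cofactor of the p97 ATPase, had an 85-nt first intron with a mean of 1940 at E2.5 and 298.9 at E3.5, the highest level per length without RefSeq overlap at E2.5, and a ratio of 36.8% and 22.7%. The other 8 Ubxn1 introns had 0.158% and 0.224%. In Eif3c, a subunit of translation initiation factor 3, the 128-nt first intron had 709 and 65.8 and a ratio of 35.2% and 5.18%, and it lay wholly inside an exon of a protein-coding GENCODE transcript of Eif3c. For Eif5, the GTPase-activating factor of initiation, the 115-nt first intron had 365 and 42.3 with 8.67% and 5.195%, and only 2 of its bases lay in a GENCODE exon. AA467197 had a 130-nt first intron with a mean of 8.52 at E2.5, under the minimum, and 426 at E3.5, and its ratio was 7.14% and 8.08%. Its exon level was 918 and 40526 per 1000 nt, on the separate scale of each stage.

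Ribosomal protein genes supplied many members with low ratios. Rpl41 had the highest level per length at E3.5 among members without RefSeq overlap, through its 114-nt first intron in the 5′ UTR, with a mean of 575 at E2.5 and 1596 at E3.5 and a ratio of 1.12% and 12.0%. The exon just before it, of 81 nt, had a mean of 1086 and 2412, and the next exon 43726 and 8136. These means are on the separate scale of each stage. The Rpl41 intron lies wholly inside an exon of a protein-coding GENCODE transcript of its gene. Rpl10 had 3 members in 1 transcript. Its intron 3, of 81 nt, had 192 and 419 with 1.61% and 2.496%, and its first intron, of 104 nt, 308 and 267 with 2.01% and 1.24%. Rpl9 had a 120-nt last intron in the 3′ UTR with 182 and 246 and 1.30% and 1.06%. Many of these genes, and Hspa8, have near-identical processed copies elsewhere in the genome, so their exon levels and ratios are uncertain.

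Nop56, Mrps24 and Cuta held further members with a high level. Nop56, a core protein of box C/D snoRNPs, had 201 at E2.5 and 169 at E3.5 over its 83-nt intron 6, with a ratio of 16.97% and 23.97%, beside 4.51% and 6.01% for the other introns. The longer intron 8 of Nop56, of 343 nt, had a mean of 726 and 561 and a like ratio of 14.9% and 19.2%. Both short introns of Mrps24, a protein of the mitochondrial small ribosomal subunit, were members, with 288 and 79.1 for intron 1 and 284 and 88.0 for intron 2. Intron 1 had a ratio of 29.1% at E2.5 and 12.2% at E3.5, and intron 2 stayed close to it with 25.4% and 11.95%. In Cuta, a 77-nt intron of a noncoding transcript had 170 and 202, with 29.8% and 42.5%.

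Without RefSeq exon overlap, the highest ratios came from transcripts with a low exon level. The ranking was limited to members without such overlap and to transcripts with a summed exon mean of at least 100. Members with overlap reached higher ratios, such as Tardbp with 909% at E2.5 at an exon level of 1987 per 1000 nt. Within these limits at E2.5 Map7d1, a microtubule-associated protein, led with an 86-nt intron of mean 16.5 and a ratio of 506%, followed by the noncoding Gm4285 (402%), the dipeptidase gene Dpep2 (347%), Timm21 (334%) of mitochondrial import and the B-cell lectin gene Cd22 (328%). Their exon levels lay between 37.9 and 142 per 1000 nt. The other intron of Gm4285 stood at 97.4%. In Cd22 the other introns stood at 70.5%, in Dpep2 at 40.2%, in Timm21 at 30.5% and in Map7d1 at 13.4%. These values lay far above the median of 0.497% over the other introns of members. Within Map7d1 every intron from 9 to 16 had a ratio between 80.0% and 506%, among them the 248-nt intron 9 with 354%. The listed Map7d1 introns were thus not alone in their transcript. Dpep2 intron 9 lay inside an exon of a noncoding gene of the other strand. A second Map7d1 intron (318%), Doc2a (286%), a second Timm21 intron (235%), Naprt (209%) of NAD synthesis and the cytochrome P450 gene Cyp2d9 (207%) completed the 10. Naprt intron 12 had 178%, and Cyp2d9 intron 7, of 374 nt, had 109%.

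At E3.5, under the same limits, Tead1, a DNA-binding partner of YAP, led with a ratio of 494% for its 89-nt intron 4, whose mean was 2.83 at E2.5 and 74.1 at E3.5. The exons on either side had means of 35.6 and 118.8 at E3.5, which are 565 and 1886 per 1000 nt, while all exons of the transcript had 168 per 1000 nt. The intron, with 832 per 1000 nt, lay between the levels of its neighbours. Doc2a, a calcium sensor of vesicle release, followed with intron 10 (326%) and intron 9 (243%), whose means were 60.1 and 80.6, and 41.8 and 63.6. Both introns lie inside an exon of the protein-coding gene Ino80e on the other strand, and Doc2a introns 6, 7 and 8 had ratios of at most 1.83% at either stage. Psmb10 (132%) was described above. Mast1 (279%), a kinase, the ubiquitin ligase gene Mycbp2 (125%), Ubtfl1 (180%), the macrophage lectin gene Mgl2 (118%) and the acid-sensing channel gene Asic3 (117%) also ranked among the 10. The 107-nt Mast1 intron had a mean of 0.50 at E2.5 and 13.7 at E3.5, and the Mycbp2 intron 1.48 and 15.8. Per 1000 nt at E3.5, the Ubtfl1, Mgl2 and Asic3 introns lay under both neighbouring exons. The Mycbp2 intron lay between its neighbours, and the Mast1 intron above both. In Mast1 intron 16, which overlaps a RefSeq exon by 22 nt, had 735% at E3.5, and the long introns 12 and 24 had 197% and 195%, so several introns of this transcript stood above its exons.

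Several genes had many members at once, and these genes were chosen after their counts were seen. Alppl2, an alkaline phosphatase of the early embryo, had 9 members among its 9 short introns at E2.5, each with a ratio between 0.0399% and 0.970%, and none at E3.5, where their means were at most 3.60. Dgat1, which makes triacylglycerol, had 6 members of 14 short introns at E3.5, with ratios between 8.93% and 40.5%. Trim28, a corepressor of retroelements, also had 6 at E3.5, of 12, but at 1.38% to 7.17%. Gps1, a COP9 signalosome subunit, had 5 of 7 at 7.77% to 35.7%. Members of 1 gene share reads and expression and are not independent.

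Both last and first introns of transcripts were more frequent among members than among other short introns. The number of introns per transcript was not taken into account. At E3.5, 22.3% (Wilson 95% interval 19.0 to 25.9) of members without exon overlap were the last intron of their transcript, against 8.81% (8.41 to 9.22) of short introns under the minimum, and at E2.5 16.7% against 8.98%. First introns made up 16.8% at E2.5 and 10.7% at E3.5, against 4.66% and 4.91%. Introns between coding exons made up 90.5% and 90.7% of members without overlap, 5′ UTR introns 4.83% and 4.46%, and 3′ UTR introns 1.33% and 2.14%, the last against 0.395% and 0.362% under the minimum. Among members with exon overlap 62.6% and 60.5% were coding, and 23.7% and 21.0% of them lay in the 5′ UTR.

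Translation through most coding members would stop inside the intron. An in-frame stop codon was found in 73.3% of coding members without overlap at E2.5 and in 77.0% at E3.5, against 74.0% and 73.9% of the other short introns. A length divisible by 3 was found in 30.2% and 31.4%, and both a divisible length and no stop in 6.63% and 5.89%, close to the 7.09% and 7.13% of the short introns under the minimum. Among coding members with exon overlap 20.7% and 16.7% had both.

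Splice site letters of members differed little from those of other short introns. Of the members, 98.5% at E2.5 and 98.8% at E3.5 began with GT and ended with AG. The 6 letters GTAAGT, which pair without a mismatch with U1 at the intron side, opened 8.48% of members at E2.5 and 11.0% at E3.5, against 9.46% and 9.37% of short introns under the minimum and 14.5% and 15.6% of longer introns with the minimum mean, up to 100000 nt. For GTGAGT the shares were 16.3% and 17.2%, against 16.01% and 15.98% under the minimum. An adenosine at intron position 4, counted from 1 at the 5′ splice site, which lies opposite the METTL16 target base of U6, was present in 66.1% and 69.4% of members, against 67.7% and 67.6% under the minimum and 71.2% and 71.7% of the longer introns. Members without overlap and with a ratio under 5% at E3.5 held GTAAGT in 17.2% (12.9 to 22.4), and those with a ratio of at least 20% in 8.57% (4.97 to 14.4). At E2.5 the same shares were 11.3% (8.20 to 15.2) and 8.00% (4.40 to 14.1). The intervals of the high and the low ratio class overlapped at both stages, which does not show that the shares are alike. Their difference was not tested.

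Base composition set short introns apart from long ones. The median GC content of members was 56.4% at E2.5 and 53.1% at E3.5, against 55.0% and 55.1% of the short introns under the minimum and 44.0% and 43.5% of the longer introns with the minimum mean. Within the class, members without overlap with a ratio of at least 20% had a median of 58.1% and 54.0%, and those under 5% had 54.2% and 50.9%.

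The nonamer TACAGAGAA, written here as DNA, is the sequence METTL16 is known to methylate, and few short introns held it. No member held it on the transcript strand at E2.5, and 1 of 680 (0.147%) did at E3.5. The nonamer was present in 18.9% of the longer introns with the minimum mean at E3.5 and in 0.0213% of short introns under the minimum, and on the other strand in 1 member at E2.5. Length alone gives a long intron more places to hold it. The letters in an intron show neither binding nor methylation.

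Mat2a, the METTL16 target, has 2 introns under 150 nt. Intron 7, of 91 nt, had a mean of 12.0 at E2.5 and 1.43 at E3.5, and intron 4, of 76 nt, 16.1 and 0.866, so both were members at E2.5 only. Their ratios of 0.72% and 0.77%, and of 1.16% and 0.56%, were near that of the other Mat2a introns at 0.903% and 0.809% for intron 7 and 0.885% and 0.817% for intron 4. The exon level of Mat2a was 18305 and 2046 per 1000 nt, on the separate scale of each stage and over a different mix of genotypes. The 115-nt last intron of Mettl16 had a mean of 0.304 and 0.597, with a ratio of 0.5004% and 1.60%, under the minimum at both stages, and the pooled mean of Mettl16 cannot check the genotype of an embryo.

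Genes of the splicing machinery were listed for the study's question, and their counts are to be read against the 3.75% of all short introns that were members at E2.5 and the 3.49% at E3.5. SR proteins, the serine/arginine-rich regulators of splice site choice, had 9 short introns in 7 of 13 genes and no member at either stage. These are too few introns to set against those shares. The median ratio over the short introns of SR proteins without overlap was 0.304% at E2.5 and 0.611% at E3.5. The kinases that phosphorylate them had 15 short introns. Those without overlap had a median ratio of 34.4% at E2.5 and 23.1% at E3.5, the highest of the 12 lists. None of the 15 reached the minimum at E2.5 and 1 did at E3.5, so these medians rest on few introns with low means. The single member was a 100-nt intron of Clk3 with a mean of 6.65 at E2.5 and 11.2 at E3.5 and a ratio of 9.60% and 18.9%. The hnRNPs, RNA-binding proteins that often oppose SR proteins, had 3 members at E2.5 and 6 at E3.5 among 41 short introns. Hnrnph1 led those without overlap, with a mean of 137 and 94.1 and a ratio of 18.5% and 25.8%, while both Hnrnpu introns had at most 3.31%. Proteins of U1, U2 and the Sm ring had 2 members of 32 short introns, both in U2af1l4 at E3.5, with 5.18% and 7.51%. The tri-snRNP and U6 proteins had 1 of 66 short introns as a member, in Lsm2 at E3.5, with 2.09%.

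The other lists are read against the same shares. Ribosomal protein genes had 61 members in 40 of 84 genes at E2.5 and 53 in 35 genes at E3.5, of 74 short introns, with a median ratio of 0.417% and 0.390% without overlap, the lowest median of any list with more than 2 members. Aminoacyl-tRNA synthetases had 3 members of 70 short introns at each stage, near the share of all short introns, with medians of 5.50% and 13.01%, led by Qars introns with a mean of 32.3 and 37.4, and 18.5 and 22.4. Tubulins and actins had 5 and 9 members of 16 short introns, among them Actg1 with a 92-nt intron of mean 23.3 at E2.5 and 158 at E3.5. Host genes of snoRNAs had 14 and 13 members of 23 short introns, with medians of 1.44% and 1.23%. The methionine cycle gave the 2 Mat2a introns at E2.5, of 12 short introns, and the writers, erasers and readers of m6A gave none of 12. Both lists have too few introns to set against those shares. Keratins of the trophectoderm had 1 member of 4 short introns, a 111-nt Krt18 intron with a mean of 1.35 at E2.5 and 34.6 at E3.5. Its ratio was 0.62% and 0.84%.

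The stages were compared over introns that reached the minimum at both, which leaves out those that passed it at 1 stage only. The stage means also pool a different mix of genotypes, so stage and mix cannot be told apart. Over the 419 members of both stages the median difference of the log2 ratio, E3.5 minus E2.5, was 0.08 (-0.03 to 0.19), and the ratio was higher at E3.5 in 54.2%. With a mean of at least 50 at both stages the median turned to -0.0915. Over the 325 of them without exon overlap it was 0.16 (0.04 to 0.34), and the ratio was higher in 57.5%. Longer introns without overlap had a median difference of 1.04 (1.01 to 1.06, n = 15506). The minimum asks more of a short intron, and its part in this gap was not tested. In the introns of any mean given above, in transcripts with an exon level of at least 1000 per 1000 nt, the median of short introns was 0.501% at E2.5 and 0.673% at E3.5 and that of longer ones 0.157% and 0.232%, higher at E3.5 in both classes. In 23.4% of the 325 the log2 difference was above 1 and in 11.7% below -1. Across these 325 introns the ratios of the stages had a Spearman correlation of 0.916, a description over introns that share genes, libraries and annotation.

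**Figure D4:**
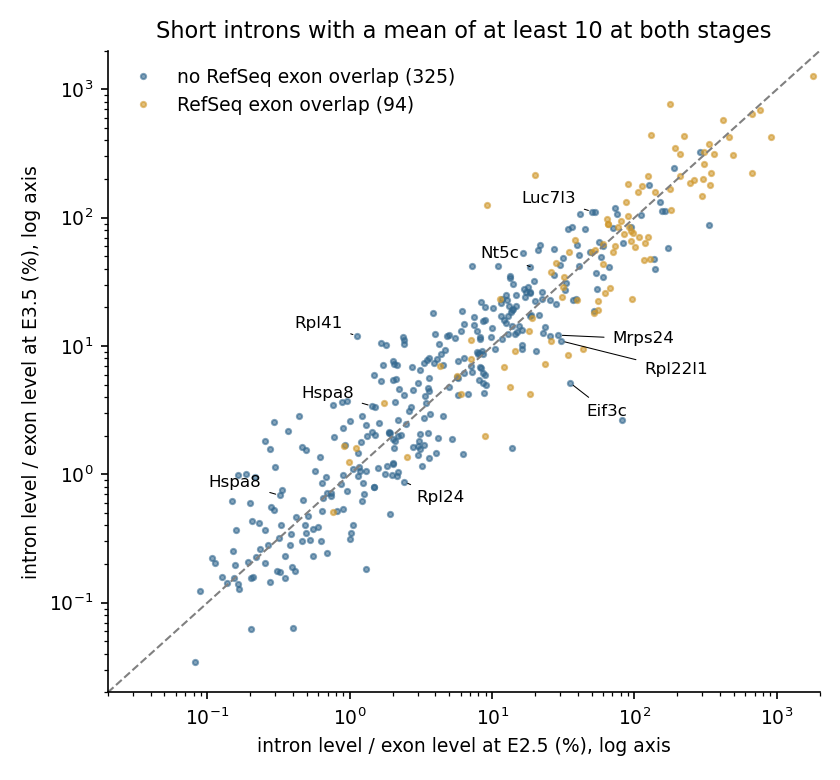
Intron level as a percentage of exon level at E2.5 and at E3.5 (both log axes) for the 419 short introns that were members at both stages, 325 without RefSeq exon overlap (blue) and 94 with it (yellow); each point is 1 intron and the dashed line marks equal ratios. Named are introns with the largest differences among those with a mean of at least 50 at both stages, such as Rpl41 with 1.12% and 12.0% and Eif3c with 35.2% and 5.18%.

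Single introns differed far more than the group. Among the 39 introns without overlap that had a mean of at least 50 at both stages, Rpl41 had the highest difference of the log2 ratio, 3.42, followed by Hspa8 intron 7 with 1.24, the last intron of the nucleotidase gene Nt5c with 1.16 (18.5% and 41.5%), Luc7l3 with 1.14 and Hspa8 intron 4 with 1.09. At the other end stood the first intron of Eif3c with -2.76, intron 2 of Rpl22l1 with -1.47 (30.4% and 11.0%), the first intron of Rpl24 with -1.45 (2.40% and 0.88%) and both Mrps24 introns with -1.26 and -1.09. The Rpl22l1 intron had a mean of 138 and 147 and an exon level of 3166 and 9299 per 1000 nt. For Luc7l3 the intron mean was 58.9 and 159 and the exon level 1108 and 1359. These means and levels are on the separate scale of each stage. These differences rest on 1 mean per stage, over a different mix of genotypes at each, and their error over embryos is not known.

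Membership at a single stage followed both exon level and ratio. The 312 members of E2.5 only had a median exon level of 2503 at E2.5 and 913 per 1000 nt at E3.5, with a median ratio of 6.93% and 4.63%. For the 261 members of E3.5 only the exon level was 1013 and 1368, and the ratio 3.81% and 12.5%. The direction of these differences is fixed by the minimum.

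The limits of the rule cut through a continuous range of values. Just above a mean of 10 stood Emg1 (10.1), Sharpin (10.1) and Znhit6 (10.1) at E2.5 and Dus3l (10.02), Crip1 (10.03) and Rpl27 (10.1) at E3.5. Just under it stood Slc4a11 (9.98), Gm11545 (9.97) and Csf3r (9.97) at E2.5, and Sra1 (9.99), Spint1 (9.97) and Stx5a (9.95) at E3.5. At 149 nt, Tmem208 (100.3 at E2.5 and 93.2 at E3.5), Pusl1 (32.2 at E2.5), Abhd11 (35.7 at E3.5) and Rpl21 (31.01 and 25.7) were inside, and at 150 nt an intron of Rnf167 (395 and 271) was outside, as were Cdc25c (22.3 and 12.3) and, at 151 nt, Huwe1 (49.2 at E3.5). The shortest members were introns of Calm5 (40 nt), Deaf1 (43 nt) and Adam9 (54 nt) at E2.5 and of Adam9, Gcdh (57 nt) and Pop5 (65 nt) at E3.5. Of these, Deaf1, Adam9 and Gcdh lay wholly inside an exon of another transcript, and Calm5 and Pop5 inside a GENCODE exon.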

How the data were processed

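Single-embryo libraries were made with the Smart-seq2 protocol, which copies polyadenylated RNA without strand information, and sequenced to reads of up to 80 nt. Per the study's methods, the authors aligned reads to mm10 with STAR, counted single exons and introns of RefSeq transcripts with featureCounts, whose versions are not given in the sources used here, and normalised them with DESeq2 1.18.1. The submitters' processing notes also name Salmon 0.7.2, cutadapt 1.9.1 and R 3.4.3. The deposited signal used here is the mean normalised count of each exon or intron over all embryos of a stage, as the authors computed it, and for markers the same mean per gene from Salmon. The 4 further value columns of each exon and intron table hold the authors' own fold changes and adjusted p-values for KO against HET and KO against WT. They were not used, so genotypes were not compared although a test per genotype had been planned. A table of an in vitro methylation assay was not used here. Library totals per embryo are not given by these means. The paper lists the reads of each library, and they were not used here.

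Distinct introns and exons were taken by chromosome, start, end and strand with pandas 2.3.3 and numpy 2.4.6 in Python 3.11.15, intervals came from scipy 1.17.1, and the steps were tested on simulated data. Deposited lengths were used, although the methods describe introns shortened by 10 nt on either side for counting, and a length less 20 nt was tried. Sequences were read with pysam 0.24.0 from the RefSeq copy of GRCm38, the build called mm10, on the transcript strand, and GENCODE exons came from release M21. The chromosomes of both have the same coordinates. Plots were drawn with matplotlib 3.10.9. Intervals are 95% Wilson intervals for shares and exact binomial intervals for medians, both over introns and neither covering variation between embryos.

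The members and gene lists were chosen with earlier results of these data known. Named introns were, per stage and without RefSeq exon overlap, the 10 with the highest level per length and the 10 with the highest ratio among transcripts with a summed exon mean of at least 100. Further named were the 5 highest and 5 lowest stage differences among introns with a mean of at least 50 at both stages, the shortest members, up to 3 introns on either side of each limit, at most 4 members per gene list, introns of Mat2a and Mettl16, and introns with the nonamer. 1 intron that these rules name is not reported here. The introns with the highest means among those with exon overlap, and the genes with many members, were added after their values were seen. The 12 gene lists were SR proteins, their kinases, hnRNPs, U1, U2 and Sm proteins, tri-snRNP and U6 proteins, the methionine cycle, m6A factors, ribosomal proteins, aminoacyl-tRNA synthetases, tubulins and actins, trophectoderm keratins and snoRNA hosts.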

Additional observations from a re-analysis of the deposited data

How the results depend on the processing

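The number of members followed the limits. It was 427 at E2.5 and 389 at E3.5 under 100 nt, 1367 and 1372 with a minimum mean of 5, and 418 and 322 with a minimum of 20. Without overlap with a RefSeq or GENCODE exon, a setting chosen after seeing the data, 192 and 189 were left. The median intron to exon ratio was 5.23% at E2.5 and 6.66% at E3.5 against the exons on either side alone, 5.33% and 8.15% with 79 added to the length for reads that cross a border, 4.52% and 7.36% without RefSeq exon overlap, 2.04% and 6.15% without RefSeq or GENCODE overlap, and 9.03% and 12.8% with the length less 20, also chosen after seeing the data. With a minimum mean of 20 it was 11.2% at E2.5. Without any minimum it was 0.499% and 0.759%. The median stage difference of the log2 ratio turned from 0.08 to -0.0915 when both means had to be at least 50, and the cause was not tested. The shares of GTAAGT and GTGAGT moved by less than their intervals without exon overlap and without a minimum, as did the median GC content without exon overlap.

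No paired analysis was possible because the deposited means pool all embryos of a stage and no value per embryo was used. For the same reason no embryo was left out, and the error of any single intron is unknown. How many embryos stand behind a low mean is not known, and genes with near-identical copies, introns inside exons of either strand and introns of weakly expressed hosts are the least certain.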
